A study of Homo sapiens with 12 samples.

Results

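The 10 BCL2 family genes BCL2, BCL2L1, MCL1, BCL2A1, BAX, BAK1, BBC3, PMAIP1, BCL2L11 and BIK were followed through RNA sequencing of cholangiocarcinoma cells treated with decitabine, talazoparib or both. The members were chosen by symbol, and all 10 were found among the 60651 genes of the count table. Both EGI-1 and HUCCT1 are established lines of cholangiocarcinoma, a cancer of the bile duct epithelium, and both carry the genotype label WT. Decitabine is a cytidine analog that traps DNA methyltransferases and lowers DNA methylation. Talazoparib inhibits PARP enzymes and holds them on damaged DNA. EGI-1 cells, grown in DMEM, received vehicle (DMSO), 0.5 µM decitabine, 200 nM talazoparib or the combination of both drugs. HUCCT1 cells, grown in RPMI1640, received vehicle or 1 µM decitabine. All cells were collected after 72 h, with 2 libraries in each of the 6 arms and 12 libraries in all. The names of the talazoparib libraries carry another number than the 200 nM of the protocol, and this was not resolved.

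The labels do not state that the libraries of an arm came from separate cultures, so the p-values measure the spread between these libraries, which may be technical. Total counts lay between 23139065 and 34965627 per library. The lines differ in decitabine dose, in culture medium and in a code of the library names whose meaning is not stated. Line, dose, medium and what this code stands for cannot be told apart. The epithelial keratins KRT8, KRT18 and KRT19 were abundant in all 12 libraries, while CFTR, a chloride channel of bile duct epithelium, stood at 3 counts or fewer in 7 of 8 EGI-1 libraries. One library stood apart. Combination replicate 2 in EGI-1 held 1048 counts over 7 leukocyte genes (PTPRC, CD3D, CD3E, CD3G, CD2, IKZF1 and CCR7, chosen after their values were seen), among them 381 of PTPRC, the common leukocyte antigen. The other 7 EGI-1 libraries held between 1 and 18 over the same 7 genes. In that library 89 genes reached at least 20 counts and at least 10 times the count of every other EGI-1 library, against at most 2 genes in each of the others. The results of the combination are therefore also given without it.

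Proteins of this family decide whether the outer membrane of the mitochondria stays closed. BCL2, BCL2L1 (BCL-XL), MCL1 and BCL2A1 (BFL-1) are pro-survival members that hold the pore-forming proteins BAX and BAK1 in check. The BH3-only proteins BBC3 (PUMA), PMAIP1 (NOXA), BCL2L11 (BIM) and BIK are sensors of stress that bind the pro-survival members, and some of them activate BAX and BAK1 directly. Once BAX and BAK1 form pores, cytochrome c leaves the mitochondria and caspases are switched on. In epithelial tumours BCL2L1 and MCL1 are the pro-survival members most often relied upon. Counts per gene measure RNA only, and they do not separate splice forms such as the long and short forms of BCL2L1, MCL1 and BCL2L11.

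The genes lie on 8 chromosomes of GRCh38. BCL2 (ENSG00000171791.14, chr18:63123346-63320128) and PMAIP1 (ENSG00000141682.12, chr18:59899996-59904305) share chromosome 18, and BAX (ENSG00000087088.20, chr19:48954815-48961798) and BBC3 (ENSG00000105327.18, chr19:47220822-47232766) share chromosome 19. The other members are BCL2L1 (ENSG00000171552.14, chr20:31664452-31723989), MCL1 (ENSG00000143384.14, chr1:150560895-150579738), BCL2A1 (ENSG00000140379.9, chr15:79960892-79971196), BAK1 (ENSG00000030110.13, chr6:33572547-33580293), BCL2L11 (ENSG00000153094.24, chr2:111119378-111168444) and BIK (ENSG00000100290.3, chr22:43110750-43129712). Whether counting used strand is not given in the sources used here, which matters for members that share exonic bases with a gene on the opposite strand. BCL2L11 shares some with MIR4435-2HG, which held 62704 counts over all libraries against 8299 of BCL2L11. MCL1 shares some with ADAMTSL4, which held 4513 counts against 92939 of MCL1. The overlapping partners of BCL2L1 (ABALON) and BAK1 (GGNBP1) held 2131 and 175 counts against 113199 and 21846. The methods of the study name a stranded library kit. For these pairs, reads from the shared bases can be told apart only if counting used strand. MCL1 also shares exonic bases with ADAMTSL4-AS1 on its own strand, which held 701 counts, and there strand does not separate reads.

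Because decitabine acts on methylated CG sites, the stretches of 250 bases before the transcription start are shown for BCL2A1, BBC3 and PMAIP1, the 3 members whose RNA rose with decitabine in HUCCT1. They are RefSeq sequences of GRCh38.p14, read 5′ to 3′ along the gene, with each CG in capitals. The starts are those of RefSeq. For BBC3 99 bases of the stretch lie inside the gene as placed above, which begins at an earlier start, while the stretches of BCL2A1 and PMAIP1 end where the gene begins.

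BCL2A1, chr15:79971197-79971446, minus strand: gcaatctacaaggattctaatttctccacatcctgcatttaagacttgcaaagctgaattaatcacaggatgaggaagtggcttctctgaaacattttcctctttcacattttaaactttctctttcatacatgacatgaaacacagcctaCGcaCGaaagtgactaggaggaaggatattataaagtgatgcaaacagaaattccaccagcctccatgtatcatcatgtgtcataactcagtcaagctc

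BBC3, chr19:47232668-47232917, minus strand: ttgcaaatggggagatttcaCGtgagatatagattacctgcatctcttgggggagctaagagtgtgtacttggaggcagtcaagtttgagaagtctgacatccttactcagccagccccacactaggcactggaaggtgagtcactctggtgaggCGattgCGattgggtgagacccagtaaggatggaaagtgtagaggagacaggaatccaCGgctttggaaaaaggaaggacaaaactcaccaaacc

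PMAIP1, chr18:59899746-59899995, plus strand: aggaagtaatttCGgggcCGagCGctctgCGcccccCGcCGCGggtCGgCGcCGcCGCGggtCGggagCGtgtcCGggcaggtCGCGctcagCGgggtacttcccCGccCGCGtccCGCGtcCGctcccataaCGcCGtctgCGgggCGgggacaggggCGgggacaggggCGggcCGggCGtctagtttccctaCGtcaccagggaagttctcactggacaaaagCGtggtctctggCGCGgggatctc

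The stretch before BCL2A1 was poor in CG, with 2, and 85.3% of the 35116 stretches in the same collection held at least as many. BBC3 held 4 CG (70.7% held at least as many). PMAIP1 held 36, a number reached by 4.85%, while the median stretch held 11. Of the members that rose in HUCCT1, BCL2A1 and BBC3 thus lay below the median CG content and PMAIP1 above it. The part of CG content in these rises was not tested. Stretches were given for 8 of the 10 members. The other members with one ranged from 5 CG before BAK1 to 34 before BCL2L11, with 12 and 17 before the 2 starts of BCL2L1, 24 before BCL2 and 25 before BAX. Those of BCL2, BCL2L11 and 1 of the 2 of BCL2L1 lie wholly inside the gene as placed above. Searched on both strands, the letters TGANTCA, read by AP-1 factors, were present before BBC3 alone among these members, 113 bases ahead of the start, and in 6.57% of all stretches. A match of this kind is a description of the letters and not a bound site. Methylation was not analysed here.

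In untreated cells the same 6 members led in both lines. Levels between genes are given as RPKM, which are library-scaled counts (CPM, with TMM factors) divided by the summed exon length in kb. BCL2L1 was the most abundant member in EGI-1, at 47.8 and 47.3 RPKM in the 2 vehicle libraries, and in HUCCT1, at 109 and 125. MCL1 followed, with 38.0 and 37.5 RPKM in EGI-1 and 57.8 and 54.9 in HUCCT1. BAX ranked next in both lines, at means of 27.7 ± 0.59 (SD, n = 2) and 32.0 ± 3.4 RPKM. In EGI-1 its libraries (28.1 and 27.3) did not separate from those of BAK1 (27.3 and 27.4), so the order of the pore-forming pair was not resolved there. In HUCCT1 the libraries of BAX (29.6 and 34.3) overlapped those of BIK (25.0 and 29.9), so their order was not resolved in that line either. BIK and PMAIP1 followed at 22.6 ± 1.8 and 20.3 ± 0.39 RPKM in EGI-1. In HUCCT1 BIK stood at 27.5 ± 3.5, BAK1 at 18.9 ± 0.35 and PMAIP1 at 12.3 ± 0.29 RPKM. BBC3 and BCL2L11 were lower, between 1.46 and 3.95 RPKM over the 4 vehicle libraries. BCL2, the founding member of the family, was near the bottom at 0.732 and 0.864 RPKM in EGI-1 and 0.0706 and 0.0629 in HUCCT1. BCL2A1, best known from blood cells, had 0 counts in both EGI-1 vehicle libraries and 11 and 10 counts in those of HUCCT1.

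**Figure D1:**
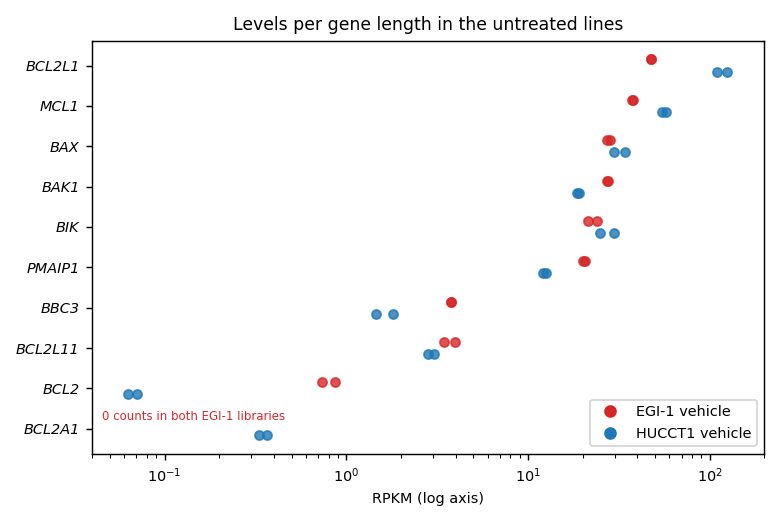
Level of each BCL2 family gene in the vehicle libraries of EGI-1 and HUCCT1, as RPKM on a log axis, with 1 point per library. BCL2L1 and MCL1 lead in both lines, and BCL2 and BCL2A1 stand at the bottom, with 0 counts of BCL2A1 in both EGI-1 vehicle libraries.

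Among members with counts in both untreated lines, BCL2, BCL2L1 and BBC3 differed most. The rank of BCL2A1 is not set, as it had 0 counts in both EGI-1 vehicle libraries. Line, library name code and culture medium cannot be told apart in this comparison. A gene is called when edgeR's quasi-likelihood test gave a Benjamini-Hochberg adjusted p under 0.05 over all genes tested. All 10 members were called between HUCCT1 and EGI-1 vehicle, 5 higher and 5 lower in HUCCT1, where 55.8% of the 25096 genes tested were called (28.5% higher and 27.3% lower). DESeq2 called 8, without BCL2A1 (log2 5.79, adjusted p = 0.0613) and BIK (adjusted p = 0.0854). Levels within a gene are given as CPM, and changes on the log2 scale. BCL2 was lower in HUCCT1 by a log2 difference of -3.57 (SE 0.20, edgeR adjusted p = 1.48e-12). Its libraries held 9.23 and 10.9 CPM in EGI-1 and 0.890 and 0.794 in HUCCT1. BCL2L1 was higher in HUCCT1, at 459 and 523 CPM against 201 and 198 (log2 1.30, SE 0.077, edgeR adjusted p = 4.13e-12). MCL1 was higher as well (log2 0.58, SE 0.069), with 360 and 342 CPM against 236 and 233. HUCCT1 thus held less BCL2 RNA and more BCL2L1 and MCL1 RNA than EGI-1. BCL2A1 in HUCCT1 vehicle was at least 2.79-fold above the limit that 0 counts allow in EGI-1, taken as 3 counts per library.

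Among the members that promote death, BBC3 was lower in HUCCT1 by a log2 difference of -1.21 (SE 0.17), PMAIP1 by -0.73 (SE 0.092) and BAK1 by -0.53 (SE 0.085). All 3 were called in each of 12 fits that left out 1 library. BCL2L11 differed by -0.34 (SE 0.10, edgeR adjusted p = 0.00658), a call lost without EGI-1 vehicle replicate 2 (edgeR adjusted p = 0.139) or HUCCT1 vehicle replicate 1 (0.0574). BAX (log2 0.21, edgeR adjusted p = 0.0374) and BIK (log2 0.28, edgeR adjusted p = 0.0441) were higher in HUCCT1 in the main test. Neither held under upper-quartile scaling, which moved the median difference of all genes from -0.00843 to -0.127 and gave 0.0859 for BAX (edgeR adjusted p = 0.382) and 0.16 for BIK (edgeR adjusted p = 0.236). Without EGI-1 combination replicate 2, which shared the fit, 8 members were called, and BAX and BIK were again those lost (edgeR adjusted p = 0.0505 and 0.0515). Leaving out 1 library ended the call of BAX in 4 of 12 fits and that of BIK in 5.

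The 4 arms of EGI-1 address what talazoparib adds to decitabine. Against decitabine alone BAK1 was the only member called, where 7.68% of all genes were called. Against vehicle the combination changed few members and by small amounts: BAK1, PMAIP1 and BCL2L1 rose by 1.47, 1.20 and 1.17-fold, and no member fell by the test. The 3 called were among 9 tested, since BCL2A1 did not pass the filter on low counts, and 18.7% of all 22406 genes tested were called (11.1% higher and 7.61% lower). Without combination replicate 2 the same 3 members were called, against 10.7% of all genes. The median log2 fold change was 0.17 over the 9 members and -0.0248 over all genes tested. As the libraries are bulk RNA, a change in the share of cells that carry a transcript and a change in RNA per cell cannot be told apart.

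BAK1, one of the pair of pore-forming proteins, showed the largest change of the 9 members tested. It stood at 60.3 and 60.5 CPM with vehicle, 62.9 and 69.9 with decitabine, 75.8 and 74.9 with talazoparib, and 90.2 and 88.0 with the combination. The 4 arms were apart from each other in this order, with the lowest level under vehicle and the highest under the combination. Against vehicle the combination raised BAK1 by a log2 fold change of 0.55 (SE 0.068, 95% interval 0.41 to 0.70, edgeR adjusted p = 1.81e-05). The call held in all 8 fits that left out 1 library, and the change was 0.57 without combination replicate 2 (edgeR adjusted p = 0.000356). Talazoparib alone gave 0.32 (SE 0.068, edgeR adjusted p = 0.00967) and decitabine alone 0.14 (SE 0.069, edgeR adjusted p = 0.564). The talazoparib call held in 4 of 8 fits with 1 library left out and was lost without either vehicle or either talazoparib library (edgeR adjusted p between 0.0692 and 0.183). These comparisons share the vehicle libraries. Against decitabine alone the combination was higher by 0.41 (SE 0.068, edgeR adjusted p = 0.000913), or 0.43 without combination replicate 2 (edgeR adjusted p = 0.00951). Against talazoparib alone the difference of 0.23 (95% interval 0.0884 to 0.37) was not called (edgeR adjusted p = 0.103, and 0.309 without combination replicate 2), although it passed without decitabine replicate 1 (0.0165) or replicate 2 (0.017). BAX, the other pore-forming member, was at 72.8 and 70.6 CPM with vehicle and 82.4 and 80.1 with the combination, a log2 fold change of 0.17 (95% interval 0.0332 to 0.31) that was not called (edgeR adjusted p = 0.0799). BAX passed when the vehicle and combination arms were fitted alone (log2 0.18, edgeR adjusted p = 0.0139) or without decitabine replicate 1 (0.0387) or replicate 2 (0.0386), and it was at 0.20 without combination replicate 2 (edgeR adjusted p = 0.159).

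PMAIP1, a BH3-only protein that binds MCL1, was the sole BH3-only member called in EGI-1. Its levels were 43.9 and 45.1 CPM with vehicle, 44.8 and 45.5 with decitabine, 48.8 and 48.5 with talazoparib, and 55.1 and 52.2 with the combination. Vehicle and decitabine overlapped, while the combination libraries lay above all others. The combination raised it by 0.26 on the log2 scale (SE 0.070, 95% interval 0.11 to 0.41, edgeR adjusted p = 0.0141), and by 0.30 without combination replicate 2 (edgeR adjusted p = 0.0358). The call was lost without either vehicle library or combination replicate 1 (edgeR adjusted p between 0.0994 and 0.163). Against decitabine alone the difference of 0.23 did not pass (SE 0.070, edgeR adjusted p = 0.0507), and was 0.28 without combination replicate 2 (edgeR adjusted p = 0.104). It passed without decitabine replicate 2 (0.0495) and with RLE scaling (0.0436).

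The other BH3-only members were not called in any EGI-1 comparison in edgeR. BBC3, a BH3-only protein that binds all pro-survival members, was at 12.1 and 11.9 CPM with vehicle, 9.11 and 12.4 with decitabine, 10.6 and 9.08 with talazoparib, and 10.1 and 9.42 with the combination. Its log2 fold change in the combination was -0.31 (95% interval -0.60 to -0.0103, edgeR adjusted p = 0.146), of opposite sign to that of PMAIP1, and -0.25 without combination replicate 2 (edgeR adjusted p = 0.431). BCL2L11 stood at 23.3 and 26.6 CPM with vehicle and 29.1 and 28.0 with the combination (log2 0.19, edgeR adjusted p = 0.164, and 0.22 with an adjusted p of 0.254 without combination replicate 2), apart from each other, and its overlapping partner MIR4435-2HG was not called (log2 -0.11). BIK ranged from 19.7 to 23.2 CPM over the 8 libraries, and its 4 arms overlapped. Its log2 fold change in the combination was -0.0504 without combination replicate 2.

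Of the pro-survival members, BCL2L1 was the one that moved in EGI-1. Its level was above vehicle by similar amounts in each treated arm, at 201 and 198 CPM with vehicle, 232 and 230 with decitabine, 235 and 232 with talazoparib, and 240 and 229 with the combination. Each treated arm lay above vehicle, and the 3 treated arms overlapped. The log2 fold changes were 0.22 with decitabine (SE 0.055, edgeR adjusted p = 0.103), 0.23 with talazoparib (SE 0.055, edgeR adjusted p = 0.0226) and 0.23 with the combination (SE 0.055, edgeR adjusted p = 0.00787). DESeq2 called the first as well (adjusted p = 0.0252). Without combination replicate 2 the combination gave 0.26 (edgeR adjusted p = 0.0212), with the call lost without either vehicle library or combination replicate 1 (edgeR adjusted p between 0.0826 and 0.11). The talazoparib call was lost without any 1 of the 2 vehicle and 2 talazoparib libraries (edgeR adjusted p between 0.109 and 0.317). The combination differed from the sum of the single effects by -0.22 on the log2 scale (SE 0.078), which did not pass adjustment over all genes in edgeR (adjusted p = 1.0).

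MCL1 stayed within a narrow range in EGI-1, from 221 CPM in a talazoparib library to 241 in a combination library, and its combination interval ran from -0.12 to 0.11 on the log2 scale (-0.0389 without combination replicate 2). The neighbour ADAMTSL4, whose exons it overlaps on the other strand, was itself called in the combination (log2 1.04, SE 0.12). BCL2 lay between 8.91 and 10.9 CPM in the 8 libraries, and its arms overlapped. Without combination replicate 2 its change in the combination was -0.18 (edgeR adjusted p = 0.557). BCL2A1 had 0 counts in 6 of the 8 EGI-1 libraries, 1 in talazoparib replicate 2 and 13 in combination replicate 2. That last library is the one with 1048 leukocyte counts, and the next highest sum, 18, was in talazoparib replicate 2. The part of leukocyte RNA in these BCL2A1 counts was not tested. With no filter on low counts BCL2A1 was called in the combination (edgeR adjusted p = 0.0481), on the 13 counts of that library.

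By comparison, 2 of 9 members (BAK1 and BCL2L1) were called with talazoparib, where 4.12% of all genes were called. None was called with decitabine (0.544% of genes), where 1 had an unadjusted edgeR p under 0.05 and DESeq2 called 1. The combination differed from decitabine alone in 1 of 9 members (BAK1, 7.68% of genes) and from talazoparib alone in none (1.92% of genes), with 1 member at an unadjusted edgeR p under 0.05 and none by DESeq2. No member departed from the sum of the single effects in edgeR (0.161% of genes) or DESeq2, and BCL2L1 was the 1 at an unadjusted p under 0.05.

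In HUCCT1, 4 members were called with decitabine alone at 1 µM. BCL2A1, BBC3 and PMAIP1 rose by 13.8, 1.87 and 1.47-fold, and BAX fell to 0.796 of its vehicle level. These 4 were among 10 tested (3 higher, 1 lower), where 33.5% of the 22479 genes tested were called (19.6% higher and 13.9% lower), so the share of members was close to that of all genes. The median log2 fold change was 0.0511 over the 10 members and 0.00198 over all genes.

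BCL2A1, a pro-survival member induced by NF-κB in blood cells, rose from 11 and 10 counts to 142 and 157. In CPM the vehicle libraries were at 0.363 and 0.331 and the decitabine libraries at 4.44 and 5.31, with no overlap. The log2 fold change was 3.79 (SE 0.31, 95% interval 3.15 to 4.42, edgeR adjusted p = 4.03e-10), and the call held in all 4 fits that left out 1 library. Even so, its level with decitabine, 4.46 and 5.33 RPKM, was far below that of BCL2L1, 117 and 130 RPKM in the same libraries. PTPRC held 3 counts in each HUCCT1 decitabine library. The 7 leukocyte genes together held 6 and 6 counts with vehicle and 80 and 87 with decitabine. With decitabine CCR7 gave 50 in each library, CD3E 17 and 23, and CD3D 8 and 11, while CD3G and CD2 gave 0. With vehicle CCR7 gave 1 and 0, CD3E 0 and 1, and CD3D 2 and 0. The part of these 7 genes in the BCL2A1 result was not tested. In HUCCT1 with decitabine BCL2A1 was at least 40.6-fold above the limit that 0 counts allow in EGI-1 with decitabine, at another dose.

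The BH3-only members BBC3 and PMAIP1 rose. BBC3 went from 4.65 and 5.75 CPM to 8.47 and 11.2, and the arms did not overlap. The log2 fold change was 0.91 (SE 0.18, 95% interval 0.53 to 1.28, edgeR adjusted p = 0.000349), called in 4 of 4 fits with 1 library left out. The 8 EGI-1 libraries lay between 9.08 and 12.4 CPM. PMAIP1 went from 26.4 and 27.3 CPM to 36.3 and 43.2 (log2 0.56, SE 0.12, 95% interval 0.30 to 0.81, edgeR adjusted p = 0.000839), also called in 4 of 4. Even after the rise it stayed below every EGI-1 library, the lowest of which held 43.9. The remaining BH3-only genes, BCL2L11 (19.1 and 20.4 CPM with vehicle, 18.9 and 18.0 with decitabine) and BIK (23.8 and 28.5, then 24.8 and 26.7), were not called.

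BAX was lower with decitabine, at 65.1 and 67.4 CPM against 76.5 and 88.8 (log2 -0.33, SE 0.11, edgeR adjusted p = 0.0243). This call was the least stable of the 4, since it held in 1 of 4 fits with 1 library left out and was lost without vehicle replicate 2 (edgeR adjusted p = 0.229), decitabine replicate 1 (0.127) or decitabine replicate 2 (0.0849). BAK1 overlapped between arms, at 41.2 and 42.3 CPM with vehicle and 39.9 and 46.1 with decitabine (log2 0.0341, 95% interval -0.21 to 0.28). MCL1 was at 360 and 342 CPM with vehicle and 294 and 302 with decitabine, apart from each other. Its log2 fold change of -0.25 missed the threshold in the main test (SE 0.10, edgeR adjusted p = 0.0735) and passed it when all 12 libraries were fitted together (-0.24, edgeR adjusted p = 0.0105) or with the replicate number as a block (-0.25, edgeR adjusted p = 0.000693). ADAMTSL4, the neighbour with shared exons, was called in the opposite direction (log2 1.28, SE 0.15). BCL2L1 overlapped between arms, at 459 and 523 CPM against 493 and 544, and BCL2 held 24 to 32 counts in each of the 4 libraries.

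The cells' own markers moved in the same libraries. In HUCCT1 the sum over 8 bile duct and carcinoma markers fell from 14500 and 16300 CPM with vehicle to 8870 and 10200 with decitabine. Of these 8, 5 were called lower and CFTR higher, where 13.9% of all genes tested were called lower and 19.6% higher. The sum over 10 markers of other cell types rose from 32.3 and 33.8 to 177 and 210 CPM, mostly through COL1A1. The 4 of them tested (CD3E, COL1A1, PECAM1 and VWF) were all called higher. ALB and COL3A1 held 3 counts or fewer in every library. In EGI-1 the first sum lay between 7810 and 8740 CPM and the second between 35.5 and 73.0, the highest values of both being in combination libraries. The part of these shifts in the members' changes was not tested.

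The difference in the decitabine effect between the lines was tested with an interaction term over all 12 libraries, in which 15.9% of 25096 genes were called. It was called for 3 of 10 members in edgeR, and DESeq2 also called MCL1 (-0.25, adjusted p = 0.0419). The change of BBC3 was higher in HUCCT1 than in EGI-1 by a log2 difference of 1.08 (SE 0.23, edgeR adjusted p = 0.00266), with -0.16 in EGI-1 and 0.91 in HUCCT1. PMAIP1 differed by 0.55 (SE 0.13, edgeR adjusted p = 0.00516), with 0.028 in EGI-1 and 0.56 in HUCCT1. BAX differed the other way, by -0.36 (SE 0.12, edgeR adjusted p = 0.0355), with 0.0502 in EGI-1 and -0.33 in HUCCT1. The first 2 held in 12 of 12 fits with 1 library left out, and BAX in 6 of 12. The dose was 0.5 µM in EGI-1 and 1 µM in HUCCT1, and library name code and culture medium differed too. Line, dose, library name code and medium cannot be told apart in these differences. For BCL2A1 the 0 counts in EGI-1 leave no usable estimate of the difference.

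Other genes of the pathway were read from 7 lists of 74 genes. With the combination in EGI-1, 8 rose and 5 fell among 67 tested, which is 19.4% against 18.7% of all genes. Without combination replicate 2, 4 rose and 2 fell among 69 tested, which is 8.70% against 10.7% of all genes. The 6 called in that fit were BAD, BCL2L12, FOXO1, STAT5A, MDM4 and ATF4. Among the other BH3-only and pore-forming genes, 1 of 5 was called: BAD, a BH3-only protein that binds BCL2L1 and BCL2, with a log2 fold change of 0.53 (SE 0.092, edgeR adjusted p = 0.000553) that was called in 8 of 8 fits with 1 library left out. With talazoparib alone BAD was called higher and BMF, another BH3-only gene, lower, where 4.12% of all genes were called. BMF held 9.88 and 11.4 CPM with vehicle and 5.87 and 7.88 with talazoparib. It was also called lower in the combination against decitabine alone (7.68% of all genes). Of 8 BCL2-related genes tested outside the core groups in the combination against vehicle, BNIP3, a mitophagy receptor, fell (log2 -0.64) and BCL2L12 rose (0.40). The call of BNIP3 was lost without combination replicate 2 (edgeR adjusted p = 0.0838), and that of BCL2L12 held in 5 of 8 fits. Of 17 genes of the apoptosome and caspases, DFFA alone was called (log2 0.23, edgeR adjusted p = 0.0493), in 2 of 8 fits with 1 library left out and not without combination replicate 2 (edgeR adjusted p = 0.273). Of 5 inhibitors of apoptosis 0 were called in edgeR or DESeq2, with 0 at an unadjusted edgeR p under 0.05. Among 11 death receptor genes TRADD, an adaptor (log2 0.47), and TNFRSF10B, a TRAIL receptor (log2 0.18), rose, each called in 4 of 8 such fits and neither without combination replicate 2 (edgeR adjusted p = 0.0585 and 0.159). Of 20 regulators, 3 rose and 4 fell. MDM4 fell by a log2 fold change of -0.78 (SE 0.079, edgeR adjusted p = 1.94e-06), E2F1 fell (-0.34), and STAT5A (0.56) and FOXO1 (0.45) rose. E2F1 was called in 5 of 8 such fits and not without combination replicate 2 (edgeR adjusted p = 0.156), FOXO1 in 7 of 8, and MDM4 and STAT5A in 8 of 8.

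With decitabine in HUCCT1, 16 of the 70 pathway genes tested rose and 9 fell (35.7% called, against 33.5% of all genes). BCL2L10, a further pro-survival member, rose by a log2 fold change of 1.91 (SE 0.31, edgeR adjusted p = 2.67e-05), while BCL2L2 was not called. Of the 5 other BH3-only and pore-forming genes 0 were called in edgeR or DESeq2, and 1 had an unadjusted edgeR p under 0.05. Outside the core groups BNIP3 rose by 1.96 (SE 0.18), opposite in sign to its change in the EGI-1 combination, and BCL2L15 rose (0.81), while BCL2L13 fell (-0.51). Among 6 inhibitors of apoptosis, BIRC7 (log2 2.63, SE 0.48), BIRC3 (1.16, SE 0.11) and BIRC2 (0.29) rose, and BIRC5 (survivin) fell (-0.34). The rise of BIRC7 rests on low counts, 5 and 8 with vehicle and 33 and 50 with decitabine. With 1 library left out BIRC2 was called in 0 of 4 fits and BIRC5 in 1 of 4, while BIRC7 and BIRC3 were called in 4 of 4. BIRC3 encodes cIAP2. CFLAR, which encodes the caspase-8 inhibitor FLIP, rose as well (log2 0.94, SE 0.11). Of 11 death receptor genes 4 rose, among them TNFRSF10D, a decoy receptor for TRAIL (0.94), and TNFSF10, which encodes TRAIL (0.78, called in 3 of 4 fits with 1 library left out), and 2 fell, with FADD at -0.64. Of 17 caspase and apoptosome genes the executioner caspase CASP6 (-0.46) and CASP2 (-0.40) fell, called in 2 and 3 of 4 such fits. Of 21 regulators 6 rose and 3 fell. TP63 (log2 1.99, SE 0.27), DDIT3, the CHOP factor of the unfolded protein response (1.33, SE 0.13), and STAT5A (0.94) rose, and TP73 fell (-1.13, SE 0.13).

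The genes whose levels followed the called members most closely over the 8 EGI-1 libraries were named as a description, by Pearson's r of log2 CPM among 14583 genes. BAK1 was followed by STIM1 (r = 0.999), USP11 (0.998) and IGFBP7 (0.996). PMAIP1 was followed by PPM1J (0.987), WDR45 (0.987) and ALDH1B1 (0.985). For BCL2L1, whose 3 treated arms lay close together, the values were lower, at 0.977 for NXF1, 0.962 for ARL16 and 0.955 for LINC00886. The 8 points share 4 arms and their depth, so these values carry no test.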

How the data were processed

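RNA sequencing of 12 libraries was analysed from the table of raw counts per gene that the authors deposited, which holds 60651 genes with versioned Ensembl identifiers and no normalization. The submitters' processing notes name fastp, Trim Galore, HISAT2, featureCounts and GRCh38, while the methods of the study name STAR and RSEM. The table has the header layout of featureCounts. Annotation, strand setting and treatment of reads that match several genes are not given in the sources used here. Symbols came from a separate reference of gene names (60437 identifiers matched), and positions and exon lengths from GENCODE 44.

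Genes were filtered with filterByExpr by arm, scaled by TMM and tested with edgeR 4.0.16 in R 4.3.3 by a robust quasi-likelihood fit, with Benjamini-Hochberg adjustment over all genes tested and a threshold of 0.05. The 8 EGI-1 libraries were fitted together (22406 genes), the 4 HUCCT1 libraries apart (22479 genes), and all 12 together for comparisons between lines (25096 genes). The SE is the absolute log2 fold change divided by the square root of F. With 2 libraries per arm and 23139065 to 34965627 counts per library, precision is set by the few libraries and, for BCL2A1, BCL2 and BBC3, by low counts. Replicates differed by more than counting noise, with a chi-square per gene between 2.73 and 12.6. Levels use TMM factors over 12 libraries (0.866 to 1.06). The procedure was tested on simulated data.

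Alternatives were upper-quartile and RLE scaling, no filter, DESeq2 1.42.0, other sets of libraries, replicate blocks and leaving out each library. Members, lists and rules for named genes were chosen with earlier results of these data known. Every member was named in the comparisons with vehicle. Of each other list up to 4 called genes with the largest change were named. A few genes of the pathway and leukocyte lists are not reported here and were left out of their counts. Of the deposited files only the count table was used, beside reference gene names, gene models and sequences.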

Additional observations from a re-analysis of the deposited data

Results flagged for a closer look

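The decitabine effect differed between HUCCT1 and EGI-1, by the interaction test of edgeR's quasi-likelihood fit, for 3 of the 10 members. The log2 difference was 1.08 for BBC3 (edgeR adjusted p = 0.00266), 0.55 for PMAIP1 (edgeR adjusted p = 0.00516) and -0.36 for BAX (edgeR adjusted p = 0.0355). BBC3 and PMAIP1 were higher in both HUCCT1 decitabine libraries than in both vehicle libraries, and BAX was lower. The dose differed between the lines (1 µM against 0.5 µM), as did the library name code and the culture medium. The part of each cannot be told apart. Over all genes tested 15.9% were called in this comparison.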

How the results depend on the processing

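Of 23 called values for single members, 136 of 145 recomputed under other settings kept direction and call, 9 lost the call (7 between the lines, 2 within EGI-1) and 0 reversed. Leaving out 1 library kept 186 of 220, with 34 losses (17 between the lines, 14 within EGI-1, 3 within HUCCT1) and 0 reversals. Leave-one-out gave between 1 and 4 members called in the EGI-1 combination, 0 and 2 with talazoparib, 1 and 2 for the combination against decitabine, and 0 and 1 against talazoparib. In the combination 1 member was left without vehicle replicate 1, vehicle replicate 2 or combination replicate 1. Where an arm kept 1 library, it was assumed to vary like the others. DESeq2 called 1 member with decitabine in EGI-1, where edgeR called 0. RLE scaling gave 2 members for the combination against decitabine, as PMAIP1 passed (edgeR adjusted p = 0.0436).

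Replicate numbers are shared between arms without a stated pairing. Deviations of same-numbered libraries correlated at 0.274 in HUCCT1 and between -0.258 and 0.192 in EGI-1. With the replicate block by title number or by library name series, talazoparib left 1 member, BAK1, since BCL2L1 lost its call (edgeR adjusted p = 0.0574 and 0.0551), while 3 stayed called in the combination. In HUCCT1 the block called 5 members, MCL1 added (edgeR adjusted p = 0.000693). With crossed decitabine numbers, chosen after seeing the data, the block gave 2 members for the combination against decitabine. Upper-quartile scaling ended the difference of BAX between the lines' decitabine effects (-0.33, edgeR adjusted p = 0.0534).

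Counts over all genes, on which the printed shares rest, moved by over 1.5 times in several settings. The 4194 genes of the combination became 2523 without combination replicate 2, and 1965 and 1850 without vehicle replicates 1 and 2. The 122 of decitabine in EGI-1 became 335 with no filter, 43 with the 2 arms alone, 60 and 75 under the blocks, 24 and 22 without vehicle replicates 1 and 2, and 417 and 287 without decitabine replicates 1 and 2. The 923 of talazoparib became 1851 with its 2 arms alone, 247 and 276 without vehicle replicates, 416 and 500 without talazoparib replicates, and 1663 and 1657 without decitabine replicates 1 and 2. For the combination against decitabine 1720 became 963 with 2 arms, 2643 under the crossed block, and 1105 and 853 without combination replicates 1 and 2. Against talazoparib 431 became 897 with no filter, 700 with 2 arms and 249 under the title block, and lay between 111 (without talazoparib replicate 2) and 1007 (without decitabine replicate 1) with 1 library left out. The 36 genes departing from the sum became 71 with no filter and 85 without decitabine replicate 1. The 4000 of the interaction became 2636 and 2540 without EGI-1 vehicle replicates 1 and 2.

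Signs reversed in uncalled values alone. For MCL1 the combination gave 0.00948 with DESeq2, 0.00684 with 2 arms and 0.00734 with RLE scaling. Upper-quartile scaling of decitabine in EGI-1 gave -0.0264 for MCL1, -0.00299 for PMAIP1, -0.0237 for BCL2L11 and -0.0259 for BIK. The remaining reversals came from leaving out 1 library, which gave these ranges. In the combination MCL1 lay between -0.0389 and 0.0305 and BIK between -0.12 and 0.0418. With decitabine in EGI-1 BCL2 lay between -0.14 and 0.11, MCL1 between -0.0277 and 0.0343, BBC3 between -0.40 and 0.0529, BCL2L11 between -0.0915 and 0.11, and BIK between -0.12 and 0.12. With talazoparib BCL2 lay between -0.21 and 0.0304, BCL2L11 between -0.0616 and 0.13, and BIK between -0.12 and 0.0832. In HUCCT1 BCL2 lay between -0.17 and 0.34, BCL2L1 between -0.0317 and 0.14, BAK1 between -0.0697 and 0.13, and BIK between -0.17 and 0.0823. The cause was not tested.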
